A study of Mus musculus with 10 samples.

Results

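The 5 libraries described here came from round spermatids of mice whose testes had been held at 33 °C, the control temperature of a study of short testicular heating. They were chosen by the temperature in their labels, and they are 5 of the 10 libraries of the series. The other 5, from testes held at 42 °C, are not compared here. All mice were adult male CD1 mice, an outbred stock, and the labels name no mutation or transgene. During 30 min of isoflurane anaesthesia the testes touched a water bath set to the stated temperature, so the control animals also went through the anaesthesia and the bath. They woke, were killed without delay, and the round spermatids were then isolated by a procedure that the labels do not describe. Each library is taken as 1 mouse, from the 5 animals per group in the series' design, so the spread between libraries holds the differences between outbred animals as well as those between cell preparations. Ribosomal RNA was removed from the RNA before stranded libraries were made and read from both ends.

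Round spermatids are the haploid cells formed by meiosis, before the nucleus condenses and the tail is complete. They build the acrosome, the vesicle of enzymes at the front of the sperm head, and they transcribe genes of the flagellum and of sperm metabolism. Many of their messenger RNAs are stored in protein particles and translated days later, when transition proteins and then protamines replace the histones.

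Library totals ran from 92311183 to 117723075 counts over 55401 genes and 1146 subfamilies of transposable elements (TE), with the highest total in library 2. Levels are counts divided by these totals and multiplied by 1000000 (CPM), and 1 count was worth 0.00849 to 0.0108 CPM. To compare genes of different lengths, CPM was divided by the length of all annotated exons of the gene in kb, written here as CPM per kb. A mean of at least 1 CPM was reached by 15959 genes, which is 28.8% of all genes, and by 12299 of the 21859 protein-coding genes (56.3%). At the other end, 12899 genes had no count in any of the 5 libraries. The median protein-coding gene at 1 CPM or more had 4.57 CPM per kb, the 90th percentile was 47.6 and the 99th was 241.

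The label was set beside markers first. The lists were chosen with earlier results of these data known, so they are not an independent check. All 5 genes given as markers of round spermatids, Prm1, Prm2, Tnp1, Acrv1 and Tssk3, were above 50 CPM in every library. Of 29 round spermatid markers, all had at least 10 CPM and 16 had at least 100 CPM, with a median of 66.2 CPM per kb. All 27 elongating spermatid genes, which include Prm1, Prm2 and Tnp1, also had at least 10 CPM, with a median of 77.2 CPM per kb. These lists therefore do not separate round from later spermatids. Of 70 markers of Sertoli, Leydig, peritubular, immune, endothelial and red blood cells, 52 were under 1 CPM and 69 under 10 CPM. Germ cells before the round stage were less well separated. Among 28 spermatocyte markers, 19 had at least 10 CPM, and among 20 spermatogonial markers 13 were under 1 CPM. In bulk RNA, fewer cells of a type and less RNA per cell cannot be told apart.

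The promoters of 4 genes are shown first, since they are among the spermatid genes on which the libraries differed most, namely the protamine genes Prm1 and Prm2 and the transition protein genes Tnp1 and Tnp2. The stretches are from RefSeq (GRCm38.p6), 250 bases before to 50 after the annotated start, all on the minus strand, at chr16:10796774-10797073 for Prm1, chr16:10792056-10792355 for Prm2, chr1:73015850-73016149 for Tnp1 and chr16:10788606-10788905 for Tnp2. Capitals mark the letters TGANNTCA, a family that includes the cAMP response element TGACGTCA, and the letters TATAA, each searched on both strands.
Prm1: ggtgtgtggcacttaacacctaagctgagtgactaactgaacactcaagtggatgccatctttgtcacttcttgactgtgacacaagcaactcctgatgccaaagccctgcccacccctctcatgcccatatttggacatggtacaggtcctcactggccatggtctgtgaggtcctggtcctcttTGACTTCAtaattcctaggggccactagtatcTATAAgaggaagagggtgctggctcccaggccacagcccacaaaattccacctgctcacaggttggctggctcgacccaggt
Prm2: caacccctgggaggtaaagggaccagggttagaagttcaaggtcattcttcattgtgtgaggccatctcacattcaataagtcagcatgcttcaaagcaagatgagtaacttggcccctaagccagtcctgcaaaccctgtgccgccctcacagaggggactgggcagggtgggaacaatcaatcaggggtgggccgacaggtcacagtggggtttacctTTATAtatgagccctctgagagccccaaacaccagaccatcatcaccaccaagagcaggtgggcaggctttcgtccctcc
Tnp1: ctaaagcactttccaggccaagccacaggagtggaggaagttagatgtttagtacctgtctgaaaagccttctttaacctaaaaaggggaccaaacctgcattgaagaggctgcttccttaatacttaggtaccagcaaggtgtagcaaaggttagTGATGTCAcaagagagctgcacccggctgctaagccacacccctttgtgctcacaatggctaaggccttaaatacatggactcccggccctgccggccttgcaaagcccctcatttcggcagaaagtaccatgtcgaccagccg
Tnp2: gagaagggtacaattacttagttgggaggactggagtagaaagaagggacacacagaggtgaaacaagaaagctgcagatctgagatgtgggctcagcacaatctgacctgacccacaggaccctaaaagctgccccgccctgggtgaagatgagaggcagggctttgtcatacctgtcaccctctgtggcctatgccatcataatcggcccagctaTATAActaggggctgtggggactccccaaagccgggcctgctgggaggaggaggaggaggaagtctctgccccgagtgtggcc
The TGANNTCA letters began 64 bases before the Prm1 start as TGACTTCA and 94 bases before the Tnp1 start as TGATGTCA. TATAA letters began 32 bases before the start of Prm1 and 33 before that of Tnp2, and those of Prm2 lay on the opposite strand 30 bases before the start. These motifs were chosen after the 4 sequences had been seen, and a match describes letters, not binding.

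The same letters were then counted in the lists of stage genes, where a gene was counted if any of its promoters held them. The elongating list includes the 4 genes above, whose sequences led to the choice of motifs, so it is given with and without them. Of 28 round spermatid markers with a promoter in the RefSeq table, 15 held TGANNTCA (53.6%), as did 13 of 22 elongating spermatid genes (59.1%), or 11 of 18 (61.1%) without Prm1, Prm2, Tnp1 and Tnp2. Among spermatocyte markers it was 3 of 25 (12.0%), among cytosolic ribosomal protein genes 5 of 31 (16.1%), and among all 27025 genes with a promoter 15.9%. Of 6101 protein-coding genes at 10 CPM or more, 14.8% held it. TATAA was found in 10.7% of the round spermatid markers and in 45.5% of the elongating spermatid genes (38.9% without the 4), against 28.0% of all genes. Of the 20 matches of TGANNTCA in round spermatid markers, 19 began within 100 bases before the start (95.0%). It was 13 of 18 matches in elongating spermatid genes (72.2%), 3 of 5 in spermatocyte markers and 46.4% of the 5113 matches in all promoters. Matches were counted for each annotated promoter, so the same site can be counted again, as for Hormad1 and Syce2 among the spermatocyte markers. The exact element TGACGTCA was rarer, with 1 round spermatid marker (Izumo1), 1 elongating spermatid gene (Ccin) and 2.03% of all genes. The windows of 24 bases below, from GRCm38.p6, show the letters in some genes of the round spermatid list. Among them are acrosome, kinase and metabolic genes. The matched bases are in capitals, and the strand is that of the gene.
Actl7a, chr4:56743374-56743397, plus strand: acaatcagTGATGTCActgttggg
Spam1, chr6:24791134-24791157, plus strand: tcactttgTGATGTCAtctgttcc
Izumo1, chr7:45621707-45621730, plus strand: ccaccctaTGACGTCAcgatggga
Lyzl6, chr11:103638911-103638934, minus strand: gagagtgaTGATGTCAcagaacca
Tex29, chr8:11840459-11840482, plus strand: cttcaaaaTGATGTCAcaataagc
Tssk2, chr16:17898571-17898594, plus strand: cagctttaTGACTTCAttcgctgg
Txndc8, chr4:58009135-58009158, minus strand: ccatccaaTGATGTCAtagaaaag
Gapdhs, chr7:30743760-30743783, minus strand: tccctctgTGATGTCActgggcaa
Gapdhs, which encodes the glycolytic enzyme GAPDH of sperm, has 2 annotated promoters in the table, each with 2 such matches, and the window shown is from 1 of them. The promoters of Acrv1 and Tssk3, themselves among the 5 given markers, held none.

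Protein-coding genes took most of the counts. Their share was 88.3%, 90.8%, 86.3%, 87.6% and 90.2% in libraries 1 to 5, a mean of 88.6% ± 1.86 (SD, n = 5, as for every ± value here). TE subfamilies took 7.61%, 4.62%, 9.07%, 8.02% and 4.86%, a mean of 6.84% ± 1.99. The order of the libraries was the reverse for these classes, and libraries 2 and 5 had the most coding and the fewest TE counts. Both are shares of the same total and fill most of it, so a higher TE share lowers the coding share. With gene counts alone as the total, coding genes took 95.1% ± 0.280. LincRNAs followed with 1.20% ± 0.0707 and antisense transcripts with 0.951% ± 0.0475, both with little spread. The highest lincRNAs were Rbakdn at 493 ± 32.9 CPM, Gm2762 at 434 ± 24.0 and 4930449C09Rik at 391 ± 10.3, genes named for being the first of their class. Whether the counting used the strand is not given in the sources used here, so reads of antisense transcripts and of their partners cannot be told apart.

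**Figure D1:**
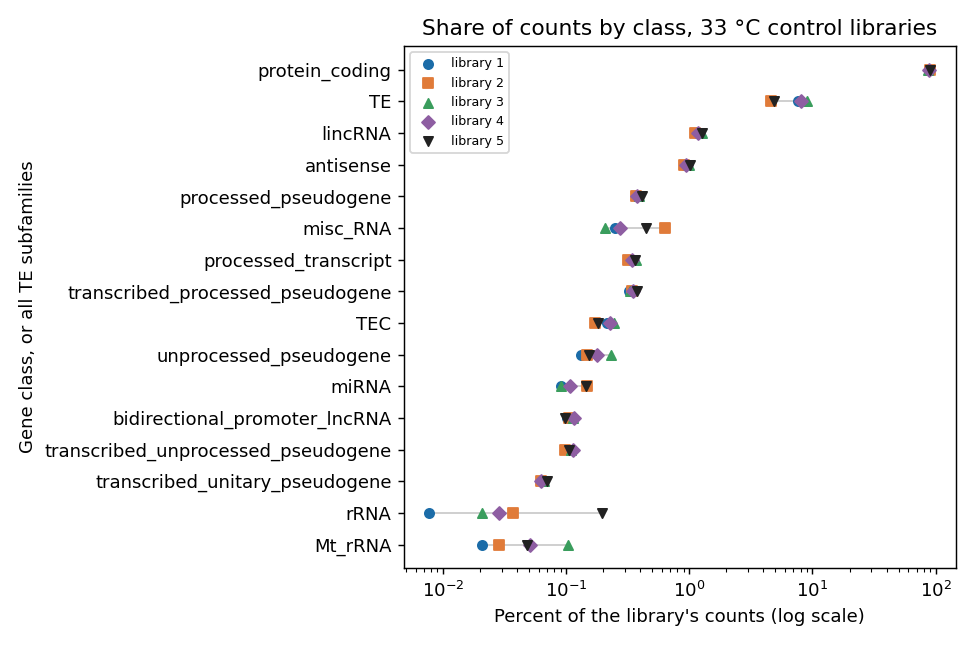
Share of each library's counts by gene class, with all TE subfamilies as 1 class, on a log axis. Each point is 1 of the 5 control libraries. Protein-coding genes sit between 86.3% and 90.8%, whereas the rRNA class runs from 0.00772% to 0.196%.

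Small noncoding classes were led by single genes and spread more. The misc_RNA class took 0.250%, 0.632%, 0.208%, 0.275% and 0.442% of counts, and Rn7sk, the 7SK RNA that holds back the elongation factor P-TEFb, made up 80.5% of it. Rn7sk had 2053, 5034, 1714, 2243 and 3527 CPM, highest in libraries 2 and 5. The same RNA is listed a second time as a TE subfamily named 7SK, whose counts were 0.739 to 0.840 of those of the gene. The rRNA class held 0.00772%, 0.0369%, 0.0207%, 0.0282% and 0.196%, and 98.6% of it was the ribosomal entry CT010467.1. In the miRNA class, 2 of the 3 leading entries, Gm47305 (216 ± 166 CPM) and Gm47287 (137 ± 66.2 CPM), lie on the same strand inside Rn7s2 and Rn7s1, genes of the 7SL RNA of the signal recognition particle, so their counts cannot be assigned to a miRNA.

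No gene dominated the libraries. The highest, Dnah8, took 0.415% of counts, the top 10 genes took 2.86%, the top 100 took 13.8% ± 0.635 and the top 1000 took 48.6% ± 1.84. Between 863 and 965 genes, depending on the library, held 50% of the gene counts. Library 2 was the most concentrated and library 3 the least. Only 72 genes reached 1000 CPM.

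The genes of highest count had varied roles. Dnah8 (chromosome 17, 30624354 to 30877365, GRCm38), a dynein heavy chain of the flagellum's outer arms, had 5413, 5230, 3708, 3786 and 2593 CPM, a mean of 4146 ± 1174. It was high in libraries 1 and 2, of which library 2 was the higher with TMM-scaled sizes, and lowest in library 5. Pabpc1 (chromosome 15, 36595661 to 36609668), the cytoplasmic poly(A)-binding protein, was close behind at 4122 ± 252 CPM, with 3703 to 4368 CPM over the 5 libraries. Atp8b3, a lipid flippase of the acrosome region, had 2945 ± 175 CPM, and Fhl4, a LIM-domain protein, had 2619 ± 128. Odf2, of the outer dense fibres, had 2554 ± 152 CPM, and Qrich2, also of the tail, had 2205 ± 179. Crat, carnitine acetyltransferase, had 2036 ± 109 CPM. Phf7, a histone-binding protein of spermatids, had 2032 ± 114 CPM. Prrc2a and Atxn2l, which are RNA-binding proteins, had 2091 ± 151 and 2029 ± 107, and the kinase gene Tesk1 had 1903 ± 89.0. Among these coding genes, Dnah8 was the one with a coefficient of variation (CV, SD divided by mean) above 10%. The mitochondrial gene mt-Co1, described below, also belonged to the genes of highest count. It had rank 8 among all genes at 2443 ± 1248 CPM, with a CV of 51.1%.

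Ranked by CPM per kb, which removes the gain that a long transcript has, the order was different. Ldhc, the lactate dehydrogenase of testis and sperm (chromosome 7, 46861203 to 46878142), led at 1648 CPM per kb. mt-Co1, a mitochondrially encoded subunit of cytochrome oxidase, followed at 1581, and Gstm5, a glutathione transferase, at 1084. Ybx2, a protein that binds and stores germ cell mRNA, had 1048 CPM per kb, Tnp2 had 963 and Prm1 had 932. The rest of the top 10 were Ropn1l, a protein of the fibrous sheath and radial spokes, Tuba3a, an alpha tubulin of testis, Meig1, needed for the manchette, and Gm8797, at 859, 818, 776 and 774. Dnah8, first by count, had rank 272 among coding genes by CPM per kb. Of the 10, mt-Co1, Tnp2 and Prm1 had a CV above 50% and the other 7 had one of at most 10.4%, so their order holds only within those spreads.

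The round spermatid list as a whole summed to 5298, 5649, 5412, 4803 and 6674 CPM. Library 5 was highest for 21 of the 29 members (72.4%) and library 4 lowest for 18, whereas of all genes at 10 CPM or more 25.8% were highest in library 5 and 19.8% lowest in library 4. With TMM-scaled library sizes, which use a trimmed mean of log ratios over all genes and TE subfamilies, the members were 25 and 16, against 37.8% and 16.1% of all such genes, and library 5 was still the highest and library 4 the lowest sum. Its most abundant members were Dkkl1, an acrosomal protein, at 860 ± 39.8 CPM, Acrbp, the proacrosin-binding protein, at 516 ± 30.0 and Actl7b, an actin-like protein of the sperm head, at 444 ± 74.1. Dkkl1 differed little between libraries, at 827, 925, 831, 850 and 869 CPM, whereas Actl7b had a CV of 16.7%. Acrv1, which encodes the acrosomal protein SP-10, had 176, 181, 148, 115 and 254 CPM, a mean of 175 ± 51.3. Tssk3, a testis-specific serine kinase, had 74.1, 72.3, 81.4, 60.9 and 92.2 CPM, a mean of 76.2 ± 11.6. Both were highest in library 5 and lowest in library 4. Spaca1, of the acrosomal membrane, had 89.0, 114, 81.1, 85.3 and 159 CPM, and Tex29 had 44.2, 47.0, 64.5, 31.1 and 99.4. The median member stood 0.53 above its own 5-library mean in library 5 and 0.38 below it in library 4 on the log2 scale. Of all genes at 10 CPM or more, 44.8% were above their own mean in library 5, against 26 of 29 round spermatid markers (89.7%). In library 4 the shares were 56.4% of all such genes and 2 of 29 markers (6.90%).

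The transition protein and protamine genes ordered the libraries in another way. Prm1 (chromosome 16, 10796326 to 10805839), the gene of protamine 1, had 554, 252, 1016, 438 and 401 CPM, a mean of 532 ± 291. Prm2 (chromosome 16, 10791380 to 10796134), of protamine 2, had 382, 188, 953, 422 and 364, a mean of 462 ± 289. Both were highest in library 3 and lowest in library 2, by 4.04-fold for Prm1 and 5.06-fold for Prm2. Tnp2 had 539, 265, 1001, 422 and 441 CPM and Tnp1 (chromosome 1, 73015074 to 73015909) had 91.8, 53.5, 209, 114 and 120. Prm3, which lies with Tnp2, Prm2 and Prm1 in 17.9 kb of chromosome 16, was much lower at 15.7, 15.7, 29.4, 11.2 and 26.3 CPM. The 5 genes together summed to 1582, 774, 3208, 1407 and 1353 CPM. All 5 were highest in library 3, and 4 of them were lowest in library 2. With TMM-scaled sizes Prm3 was highest in library 5 and the sum was 1558, 811, 2910, 1374 and 1479. Without library 3, the mean of the sum was 1279 CPM instead of 1665. Prm1 overlaps the antisense gene Gm46563 and the pseudogene Gm10343, and Tnp1 overlaps the antisense gene 1700027A15Rik, which had 41.2 CPM, so part of the Tnp1 count may belong to that gene or the reverse.

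**Figure D2:**
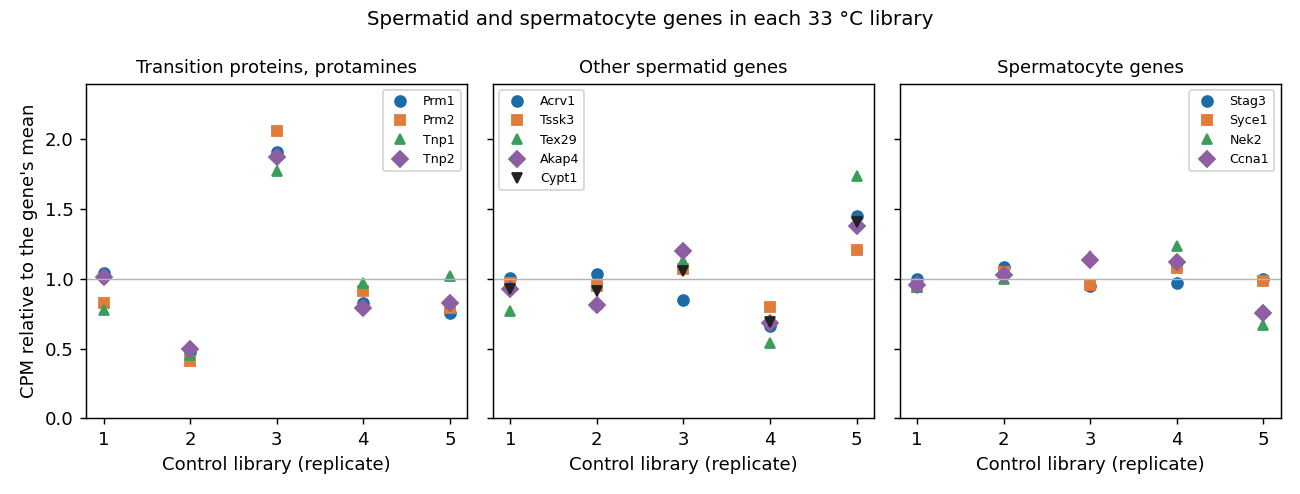
CPM of single genes divided by the gene's own mean over the 5 control libraries, by library, with a line at 1. Each point is 1 gene in 1 library. Prm1, Prm2, Tnp1 and Tnp2 stand out in library 3, Acrv1, Tssk3, Tex29, Akap4 and Cypt1 are highest in library 5 and lowest in library 4, and the spermatocyte genes Nek2 and Ccna1 are lowest in library 5. These are picked members, and not all of their lists follow them. Of 29 round spermatid markers, 21 were highest in library 5 and 18 lowest in library 4. Of 19 spermatocyte markers at 10 CPM or more, 11 were lowest in library 5 and 5 were highest there.

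Other late genes stood between these patterns. All 27 elongating spermatid genes had at least 10 CPM, with a median of 77.2 CPM per kb, and summed to 6386, 5460, 8928, 5437 and 7823 CPM. Of these genes, 13 were highest in library 3 and 13 in library 5 (48.1% each), where 17.5% and 25.8% of all genes at 10 CPM or more were. With TMM-scaled sizes 9 were highest in library 3 and 18 in library 5, against 7.64% and 37.8% of all such genes. The sum is highest in library 5 when the library sizes are TMM-scaled, at 8552 against 8098 in library 3. Without the 5 transition protein and protamine genes the sum was 4804, 4686, 5720, 4030 and 6469 CPM, highest in library 5. Akap4, on the X chromosome, which encodes the main protein of the fibrous sheath around the tail, had 486, 424, 628, 358 and 722 CPM. Akap3, its partner in the sheath, had 675, 668, 632, 507 and 1018. Both were highest in library 5 and lowest in library 4. Cabs1, a calcium-binding protein of elongating spermatids, had 72.4, 45.2, 142, 61.1 and 97.2 CPM and Spem1, needed to shed the cytoplasm, 56.2, 34.4, 111, 48.4 and 72.2. These followed the order of the protamine genes in being highest in library 3 and lowest in library 2. The ratio of the round spermatid sum to the spermatocyte sum was 1.95, 1.96, 1.91, 1.59 and 2.56, and that of the elongating sum was 2.36, 1.89, 3.15, 1.80 and 3.00.

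The genes whose pattern over the 5 libraries lay nearest to a marker were found as the smallest root mean square distance in log2 CPM, after centring each gene, among 7610 protein-coding genes at 10 CPM or more. For Prm1 these were Oxct2b, a ketone-body enzyme of testis, Fam214b and Tnp2, at distances of 0.07 each, where the median candidate was at 0.69. For Prm2 they were Bpifa3, Car2 and 5031439G07Rik, and for Tnp1 they were Trp53tg5, 4930412O13Rik and Fam71b. Acrv1 was nearest to Ppef1, St8sia3 and Impdh2 at 0.03 to 0.04, against a median of 0.41. Tssk3 was nearest to Abcg2, Ctdsp2 and Rbm4b at 0.01 to 0.04, against a median of 0.27. Impdh2, which encodes an enzyme of guanine nucleotide synthesis, had 116, 127, 98.5, 82.0 and 174 CPM, the same order of libraries as Acrv1. The distances are descriptions over 5 libraries, and the smaller a gene's own spread, the smaller its distances can be.

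Spermatocyte markers were present at lower levels per length. Their median was 14.1 CPM per kb, and their sum was 2711, 2883, 2830, 3014 and 2611 CPM. Stag3, a meiotic cohesin subunit, was the most abundant at 699 ± 37.1 CPM, ahead of Syce1, of the synaptonemal complex, at 339 ± 20.3 and Nek2, a kinase of the meiotic division, at 328 ± 72.1. Sycp3, of the synaptonemal complex axis, had 36.5, 39.8, 48.1, 64.7 and 31.1 CPM, highest in library 4 and lowest in library 5. Of the 19 members at 10 CPM or more, 10 were highest in library 4 (52.6%) and 11 lowest in library 5 (57.9%), against 25.9% and 37.2% of all such genes. With TMM-scaled sizes these were 11 and 8 members, against 18.4% and 19.4% of all such genes. With DESeq2 size factors they were 10 and 7, against 15.5% and 18.4%. The order of the sum depends on the scaling, since with TMM-scaled sizes it was 2670, 3024, 2567, 2943 and 2854, highest in library 2 and lowest in library 3. Other members were low, and 2 of the 28 were under 1 CPM. Dmc1, the recombinase of meiotic strand exchange, had 1.13 ± 0.581 CPM, and Prdm9, which places recombination hotspots, had 0.445 ± 0.103. For the spermatogonial list the sum of 946 ± 42.2 CPM was almost entirely Dmrtb1, at 919 ± 42.9 CPM, a regulator of the entry into meiosis. The next members were Id4 at 9.10 ± 1.85 CPM and Sohlh2 at 4.40 ± 0.805, and Nanos2, of stem cells, had no count in any library.

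Somatic markers were low in all libraries, and their sum was highest in library 3. All 70 together summed to 71.4, 65.9, 119, 58.4 and 64.4 CPM. Of the 18 members at 1 CPM or more, 13 were highest in library 3 (72.2%), against 26.8% of all genes at that level, and with TMM-scaled sizes 12 were, against 15.4%. The Leydig list, of steroid-making cells, summed to 4.66, 5.40, 24.4, 3.64 and 4.80 CPM, led by Cyp17a1, Insl3 and Star. The Sertoli list, of the supporting cells, summed to 18.2, 19.4, 26.1, 12.7 and 11.6 CPM, with Inha at 7.97 ± 1.21 CPM the highest. The first gene of each list was low as well, with Sox9 of Sertoli cells at 0.212 ± 0.142 CPM, Star of Leydig cells at 1.49 ± 0.926, Acta2 of peritubular cells at 1.22 ± 1.01, Ptprc of leukocytes at 0.476 ± 0.151 and Pecam1 of endothelium at 0.815 ± 0.187. Hba-a1, a globin gene listed first for red blood cells, had no count in libraries 1, 2 and 4. The peritubular and stromal list summed to 17.1, 15.4, 31.2, 18.2 and 13.9 CPM. Not every list was highest in library 3. The macrophage and leukocyte list summed to 12.3, 8.18, 12.2, 9.80 and 9.89 CPM, highest in library 1 by a small margin. With gene counts alone as the total it was highest in library 3, at 13.4 against 13.3 in library 1. The endothelial list summed to 18.6, 17.3, 24.1, 13.6 and 23.9, of which Vwf made up 10.9 ± 3.07, and with TMM-scaled sizes it was highest in library 5, at 26.1 against 21.9 in library 3. All 7 erythroid markers were under 1 CPM. Library 3 was thus highest in protamine genes, in the sum of somatic markers and, as given below, in mitochondrial and TE counts, and the part of one in another was not tested.

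**Figure D3:**
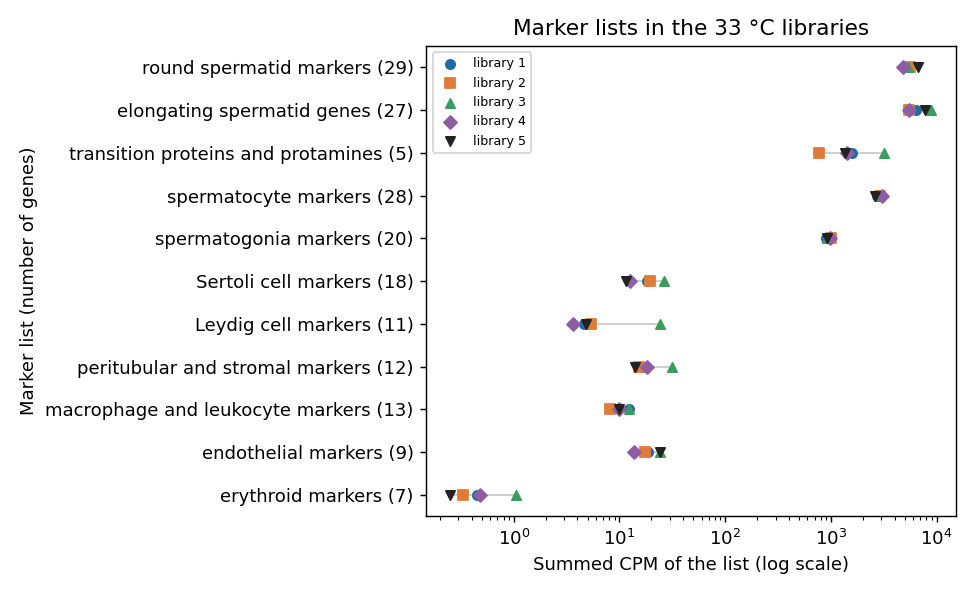
Summed CPM of marker lists in each control library, on a log axis, with the number of genes in each list in parentheses. The round and elongating spermatid lists sit far to the right of every somatic list, none of which passes 31.2 CPM. Library 3 stands farthest to the right in the Leydig, peritubular, erythroid and protamine rows.

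Genes of the mature sperm's parts were already abundant. The 31 acrosome genes summed to 6728 ± 503 CPM, with 30 members at 10 CPM or more. Crisp2, of the acrosome and tail, led at 1476 ± 70.2 CPM, followed by Dkkl1 and Acrbp. The 36 tail genes summed to 21893 ± 1538 CPM, which was 2.19% of all counts, and 32 of them reached 100 CPM. Behind Dnah8, Odf2 and Qrich2 came Dnah17, another outer arm dynein, at 1305 ± 233 CPM and Fsip2, of the fibrous sheath, at 1221 ± 343. The 21 genes of energy metabolism all reached 10 CPM and summed to 9971 ± 452 CPM. Slc2a3, a glucose transporter, had 1456, 1606, 1850, 1877 and 1074 CPM, lowest in library 5, whereas Hk1, which encodes a hexokinase, had 1062, 1100, 1105, 904 and 1432, highest there. Pgk2, the phosphoglycerate kinase of germ cells, had 477 ± 45.7 CPM.

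Regulators of spermatid transcription had a median CV of 12.6% for the 18 members at 10 CPM or more, against 12.4% for all such genes. Of these members 14 were at 100 CPM or more, and all genes of 100 to 1000 CPM had a median CV of 9.19%. The 20 regulators summed to 4320 ± 292 CPM, with Rfx2, a regulator of ciliary genes, at 596 ± 31.7 CPM, Tbpl1, a relative of the TATA-binding protein, at 429 ± 32.3 and Chd5, a chromatin remodeller, at 398 ± 112. Crem, the cAMP-responsive activator of spermatid genes, had 214, 234, 192, 205 and 252 CPM, and Fhl5, its coactivator, had 49.9, 51.9, 68.2, 39.9 and 89.0. Fhl5 spread more, with library 5 highest and library 4 lowest. The list of stored mRNA and chromatoid body proteins, with 28 of 29 names matched, summed to 18136 ± 879 CPM, and its members at 10 CPM or more had a median CV of 9.71%. After Pabpc1 its leading members were Ybx2 at 1975 ± 76.3 CPM and Tdrd6, a tudor protein of the chromatoid body, at 1633 ± 141. Of 16 histone genes, H3f3a led at 316 ± 27.2 CPM, ahead of H2az1 at 158 ± 14.3. Hils1, a linker histone of spermatids, had 116, 122, 154, 84.3 and 186 CPM. H1f7, another spermatid linker histone, had 75.4, 54.8, 140, 60.8 and 123. Both were high in libraries 3 and 5, and H1f7 was highest in library 3, or in library 5 with TMM-scaled sizes. Cytosolic ribosomal protein genes summed to 3398 ± 172 CPM over 42 genes, led by Rplp0 at 347 ± 16.8, Rps24 at 204 ± 16.7 and Rpl4 at 182 ± 14.6. The 12 reference genes of all cells summed to 2314 ± 67.9 CPM (CV 2.93%), but with TMM-scaled sizes the sum ran from 2097 in library 3 to 2521 in library 2.

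The sex chromosomes and the mitochondrial genome held small shares. Genes of the X chromosome took 0.532%, 0.516%, 0.495%, 0.403% and 0.695% of counts, and Akap4 was the highest of them. Genes of the Y chromosome took 0.0433% ± 0.00917, led by Gm20815 and Eif2s3y, at 41.7 and 36.1 CPM. The list of 30 sex-linked spermatid genes summed to 753, 680, 876, 569 and 1084 CPM. All 9 members at 10 CPM or more were above their own mean in library 5, and none was in library 4. Of all such genes, 44.8% and 56.4% were above their own mean in these libraries. Rbmy had no count in any library. Many Y genes are near-identical copies, and how reads with several alignments were treated is not given in the sources used here. The mitochondrial genome took 0.285%, 0.299%, 0.816%, 0.546% and 0.283%, with mt-Co1 at 1664, 1722, 4377, 3024 and 1427 CPM. Libraries 3 and 4 were high for both values.

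TE counts differed between libraries far more than gene counts. SINEs took 2.74%, 1.62%, 3.33%, 2.79% and 1.58% of counts, LINEs 2.25%, 1.17%, 2.63%, 2.46% and 1.39%, and LTR elements 2.07%, 1.22%, 2.51%, 2.17% and 1.35%. DNA transposons took 0.280%, 0.171%, 0.347%, 0.305% and 0.180%. In each of these classes library 3 was highest, and libraries 2 and 5 were the lowest. With TMM-scaled sizes library 4 was highest for LINEs, by 24051 against 23897 CPM. The 7SK entry, alone in the class named RNA, had the opposite order at 0.160%, 0.379%, 0.127%, 0.188% and 0.292%. Within the TE counts, SINEs made up 35.0% ± 1.65, LINEs 28.7% ± 2.03 and LTR elements 27.2% ± 0.547, so these 3 classes were steadier there than as shares of all counts. The class of 7SK was not, and ran from 1.40% of TE counts in library 3 to 8.20% in library 2.

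**Figure D4:**
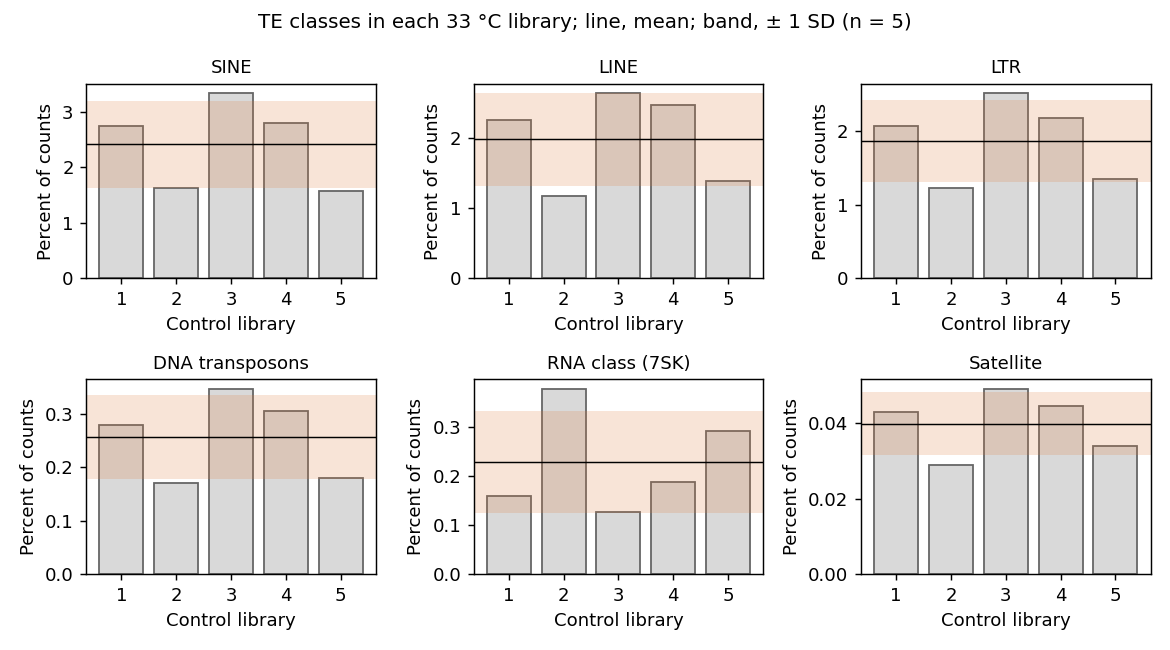
Share of each control library's counts on 6 TE classes. Bars are single libraries from 0, the line is the mean and the band is 1 SD either side (n = 5). Libraries 2 and 5 are low for SINE, LINE, LTR and DNA elements and high for the class that holds 7SK.

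Most of the leading subfamilies followed the same order, with library 3 highest and libraries 2 and 5 lowest. B3, a SINE of the B2 family, had 3199, 1784, 3909, 3187 and 1738 CPM, and RSINE1, of the B4 family, had 2317, 1331, 2781, 2284 and 1342. ID_B1 had 1821 ± 559 CPM. Among LINEs, which copy themselves through RNA, the young L1 subfamily L1Md_F2 had 2468, 1200, 2742, 2639 and 1564 CPM and L1Md_T had 2394, 1226, 2365, 2413 and 1730. L1_Mus3 had 898 ± 358 CPM. Among LTR elements the leaders were MTD at 806 ± 272 CPM, MTC at 448 ± 161 and RLTR4_MM-int at 428 ± 69.3. For DNA transposons these were URR1B at 275 ± 95.9 CPM, URR1A at 261 ± 97.7 and MER58C at 139 ± 10.4, and for satellites IMPB_01 at 233 ± 76.9, MMSAT4 at 123 ± 17.8 and ZP3AR at 39.5 ± 10.6. MER58C and MMSAT4 were exceptions to the common order, with 127, 138, 130, 153 and 144 CPM and 114, 108, 112, 130 and 151 CPM. L1Md_T was highest in library 4 and RLTR4_MM-int in library 1, though both were lowest in libraries 2 and 5. Of 473 subfamilies at 10 CPM or more, leaving out 7SK, 456 had libraries 2 and 5 as the lowest pair and 426 had library 3 as the highest. Of the 8378 genes at that level, 1074 had the same lowest pair and 17.5% were highest in library 3. With TMM-scaled sizes the subfamilies were 440 and 343, against 437 genes and 7.64%. With DESeq2 size factors they were 438 and 274, against 327 genes and 5.60%. Library 4 was then highest for 143 subfamilies, and for 15.5% of the genes. A subfamily sums many genomic copies, some of them inside introns and untranslated ends of genes, so these counts can hold RNA of genes.

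Gene counts spread less between the mice than TE counts. Over the 8378 genes at 10 CPM or more the median CV was 12.4%, and 12.3% after the Poisson part was taken off, so counting error was a small part at this depth. A CV under 10% was found for 37.9% of these genes and one over 50% for 105 of them. The highest library was at least 1.5 times the lowest for 36.6% of these genes, and for 52.7% of genes at 1 CPM or more. The median CV fell with level, from 23.2% for genes of 1 to 10 CPM to 9.19% for those of 100 to 1000 CPM. LincRNAs at 10 CPM or more had a median CV of 18.7%, protein-coding genes 12.2% and TE subfamilies 32.7%. The biological CV estimated by edgeR, as a common dispersion over the same genes, was 19.3%.

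**Figure D5:**
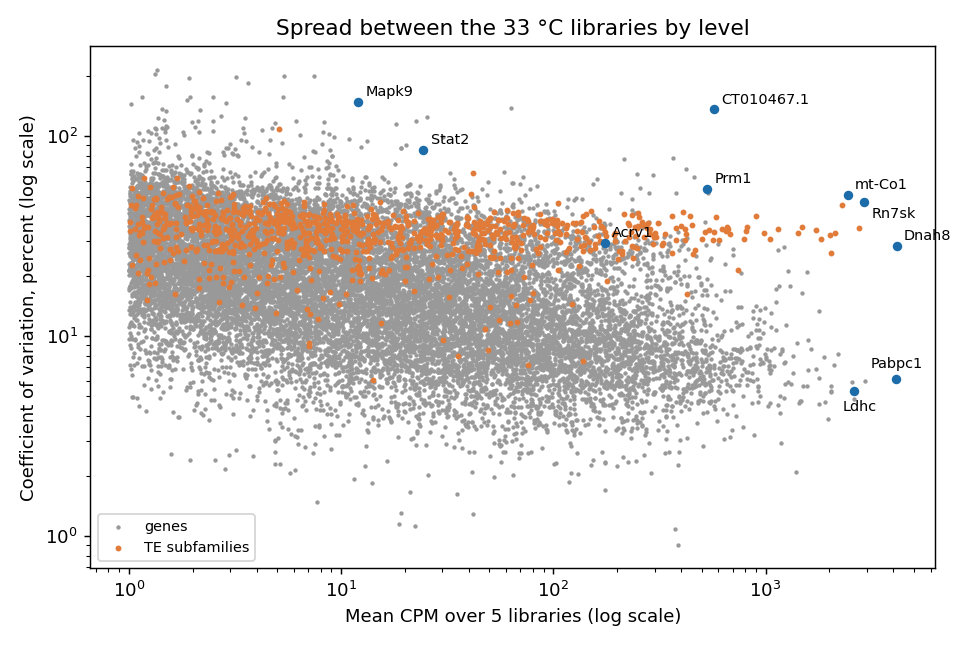
CV over the 5 control libraries against mean CPM, both on log axes, for genes (grey) and TE subfamilies (orange) at 1 CPM or more, with 10 named genes in blue. TE subfamilies form a band around 32.7%, the median CV of those at 10 CPM or more. Pabpc1 and Ldhc lie far below Rn7sk and mt-Co1 at a like level.

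Pairs of libraries were unequally close. The SD of the log2 ratio over genes was 0.29 for libraries 1 and 2, the closest pair, and 0.55 for libraries 4 and 5, the farthest. Between libraries 4 and 5, 25.4% of genes differed by at least 1.5-fold, against 4.33% between libraries 1 and 2. As a check for a library deposited a second time, the counts of each pair were set against counting error alone. The chi-square per degree of freedom was 58.9 to 201, so no pair was the same library, and at this depth the value says nothing more about how alike the mice were. The first principal component, with 52.9% of the variance, placed library 5 at one end and libraries 4 and 3 at the other, and the second, with 28.7%, separated library 3 from library 2.

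The largest relative spreads came partly from single libraries and partly from more than 1. Mapk9, which encodes the kinase JNK2, had 44.1 CPM in library 2 and 3.51 to 4.58 CPM in the others. Without library 2 its mean was 4.01 CPM instead of 12.0. The ribosomal entry CT010467.1 had 1959 CPM in library 5 and 67.0 to 362 in the others, and its mean was 225 CPM without library 5 instead of 571. Lars2, the mitochondrial leucyl-tRNA synthetase, and Gm23935 were also highest in library 5, at 81.8 and 219 CPM. Without that library their means were 11.3 instead of 25.4 CPM and 23.9 instead of 62.9 CPM. Both ranked all 5 libraries in the same order as CT010467.1. Whether their counts hold reads of ribosomal RNA was not tested. The noncoding gene 5830417I10Rik was high in library 2, at 83.6 CPM, with a mean of 16.9 CPM without it instead of 30.2. Vcp-rs, a processed copy of Vcp on the X chromosome, was high in both libraries 2 and 5, at 56.7 and 47.1 CPM, and at 2.68 to 3.29 CPM in the other 3. Lyzl4os, antisense to Lyzl4, had 52.9 CPM in library 5 and 22.1 in library 2 but 4.71 to 5.76 in the others, and without library 5 its mean was 9.37 CPM instead of 18.1. Gm41206 had 28.3 CPM in library 5 and 2.34 to 12.4 in the others. Rps6ka4, a kinase of the MAP kinase pathways, had 49.4 CPM in library 2 and 4.62 to 21.1 in the others. Without their highest library the means of these were 6.53 instead of 10.9 CPM and 12.9 instead of 20.2 CPM. Rpsa-ps10, a pseudogene of a ribosomal protein gene, split the libraries, with 12.7, 26.5 and 25.2 CPM in libraries 1, 3 and 4 and 0.807 and 0.998 in libraries 2 and 5. Of genes chosen after their values were seen, Stat2, an interferon signalling factor, had 1.40, 21.4, 28.3, 57.4 and 13.6 CPM, Neu1, a lysosomal sialidase, was near absent in library 3 alone at 0.235 CPM against 8.57 to 31.7, and Rd3 in library 2 alone at 0.408 CPM against 30.7 to 59.1. At the other end, Ankrd36 had 388 ± 3.53 CPM, a CV of 0.909%, and Mapk6, an atypical MAP kinase, had 373 ± 4.06 CPM. The other genes of smallest spread were 9130221H12Rik, Pgls, an enzyme of the pentose phosphate pathway, and Dgkeos, with CVs of 1.12%, 1.15% and 1.29%.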

How the data were processed

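The deposited values are whole-number counts of reads for each gene and TE subfamily, with no normalization as judged from the values. Per the submitters' processing notes, the builds were mm10 and GRCm38 and the tools included DRAGEN, cutadapt and Trim Galore. Not given in the sources used here are the tool that counted, whether it used the strand, and how it treated reads that align to more than 1 place. All 10 sample columns carry a sample title, and the 5 of the 33 °C group were used. Exon lengths came from GENCODE M21, in which 55141 of the 55401 gene identifiers were found, and 99.4% of these had the same position. The other 260 genes have no value per kb.

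CPM were computed from library totals over genes and TE subfamilies with pandas 2.3.3 in Python 3.11.15, and the summary of each value is mean ± SD over 5 libraries. Log2 CPM used an offset of 0.5 CPM. TMM factors (0.915 to 1.10), over all genes and TE subfamilies, came from edgeR 4.0.16 in R 4.3.3, as did the common dispersion, with an intercept as the sole term, over genes at a mean of 10 CPM or more. Size factors of DESeq2 1.42.0 were an alternative. One condition is described, so no test between groups was made and no p-value is given. Pairs of libraries were checked for duplication by chi-square, and single libraries that stand apart were found by Dixon's ratio. The scripts for CV and dispersion were tested on simulated data. Totals of 92311183 counts or more leave little counting error for genes at 10 CPM.

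Genes were named by a rule: the 20 features of highest CPM, the 10 coding genes of highest CPM per kb, the 5 given markers, the 3 leading members of each list with the first member of each somatic list, the 10 genes of largest and 5 of smallest CV at 10 CPM or more, the 3 leading TE subfamilies of 5 classes and the 3 nearest patterns of each marker. Others, among them single members given for their role, were chosen after values were seen. The members and the lists were chosen with earlier results of these data known. The lists not described in the text were those of nuclear long noncoding RNAs, where Malat1 had 384 ± 77.4 CPM, and of ribosomal and 7SL RNA, with 5 of 12 names matched. Alternatives were other denominators, TMM and DESeq2 scaling, other filters, the longest transcript as length, medians, and leaving out each library.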

Additional observations from a re-analysis of the deposited data

Results flagged for a closer look

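In 14 of 154 sets of 5 library values (9.09%), the highest library lay far from the other 4, with a gap to the next above 0.71 of the whole range. Chance sets apart about 1 in 20 sets that are independent and not chosen by their spread. These sets are neither, since 5 of the 14 are genes named for a large CV, and lists or classes are counted beside their own members, so 9.09% is not read against that rate. Library 3 accounted for 8 of them, library 5 for 4 and library 2 for 2.

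In library 3 the set apart values were mostly markers of somatic cells. The summed CPM was 24.4 for the Leydig list against 3.64 to 5.40 in the others, 31.2 for the peritubular and stromal list against 13.9 to 18.2, and 1.06 for the erythroid list against 0.252 to 0.476. Among single genes, Cyp17a1 had 6.66 CPM against 0.606 to 1.31, Insl3 had 6.17 against 0.877 to 1.23 and Star had 3.10 against 0.777 to 1.29. These encode proteins of Leydig cells. Mrc1, of macrophages, had 1.59 CPM against 0.768 to 0.942, and Dcn, of the stroma, had 3.43 against 0.473 to 1.02.

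In library 5 the rRNA class took 0.196% of counts against 0.00772% to 0.0369% in the others. CT010467.1, the entry that makes up most of this class, had 1959 CPM against 67.0 to 362. Gm23935 had 219 CPM against 8.30 to 32.9, and Lars2 had 81.8 against 4.95 to 14.8. Both ranked the libraries in the order of CT010467.1, so they are not separate from it as observations. In library 2, Mapk9 had 44.1 CPM against 3.51 to 4.58, and 5830417I10Rik had 83.6 against 14.1 to 18.3.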

How the results depend on the processing

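Of 86 values under other settings, 78 moved by less than 1 SD between libraries, or for counts by less than 1.5 times, and 8 moved by more. With gene counts alone as the denominator, coding genes took 95.1%, lincRNAs 1.29% and the top 100 genes 14.8%, and the spermatocyte and spermatogonial lists summed to 3018 and 1016 CPM. With no filter on low counts the median CV was 43.4% and the biological CV 31.9%. With the longest transcript as length, the spermatocyte median was 16.4 CPM per kb. All 135 values with 1 library left out moved by less than these limits. For means this was fixed in advance, since leaving out 1 of 5 values cannot move a mean by 1 SD. The ranges below are therefore given instead of a verdict. The round spermatid sum stayed between 5291 and 5758 CPM, the transition protein and protamine sum between 1279 and 1888 and the TE share between 6.28% and 7.39%. The biological CV was between 16.7% and 21.2%, lowest without library 5. The order of libraries was checked under other scalings after the data had been seen. TMM scaling moved the median gene to 0.16 below its own mean in library 3 and 0.10 above it in libraries 2 and 5 on the log2 scale, and the changes that bear on an order stated for a list or gene are given beside its values. At totals of 92311183 counts or more, genes near 0.01 CPM rest on about 1 count and no order is read from them. No paired analysis was possible because 1 group is described and no test between groups was made.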
